A study of Mus musculus with 9 samples.

Results

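Small GTPases of the ARF-like (ARL) family, their regulators, the carriers of lipid-modified cargo and tubby-like proteins were examined in testes of wild type and Rfx2-/- mice. By name, 10 genes were chosen among 23074 in the count table, and all 10 were found and passed the filter on low counts. The 9 described here are Arl3, Arl2bp, Rp2, Unc119, Unc119b, Pde6d, Tulp2, Tulp3 and Inpp5e. Decapsulated testes of 5 wild type and 4 Rfx2-/- mice, aged 29 to 30 days (P30), gave 1 RNA-seq library per mouse, so that the error between libraries is that between animals. All mice were of a mixed C57BL/6, 129/Sv and FVB/N background. RFX2 is a transcription factor that binds the X-box motif, and the Rfx2-/- mice lack exon 7 of its gene in all tissues after recombination by a ubiquitously expressed Cre, so that the testis was not the only tissue without RFX2. Spermatids of these mice stop before they elongate. In RNA of a whole testis, fewer cells of a type and less RNA per cell cannot be told apart.

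Cilia and flagella receive membrane proteins through a relay of lipid-binding carriers. The GTPase ARL3 acts as a switch between its GTP and GDP forms, and RP2 is the GTPase-activating protein that returns it to the GDP form. ARL3 with GTP releases cargo inside the cilium, myristoylated proteins from UNC119 and UNC119B and prenylated proteins such as the phosphatase INPP5E from PDE6D. Tubby-like proteins bind phosphoinositides, and TULP3 brings membrane receptors into cilia together with the intraflagellar transport complex A (IFT-A). In this tissue the sperm flagellum is the cilium that spermatids build, and mutations of several of these genes are known from retinal and ciliary disease.

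The promoters were searched for the X-box, because the factor removed in these mice binds it. The letters of the X-box, GTNNCC and GGNNAC with NN between them, searched on both strands from 250 bases before to 50 bases after each RefSeq start (GRCm38.p6), occurred in 2.16% of 27025 genes and in 0 of the 9. For Tulp2 and Arl2bp every RefSeq start lay further inside the gene than the window reaches back. The starts of these genes in GENCODE M21 were therefore not searched. The shorter letters GTTGCC, an arm of the X-box, occurred on either strand in 14.1% of all genes and in 1 of the 9, Pde6d. The stretch around it is shown because it holds the only such match in the windows of the 9 genes, with the match in capitals. It lies at chr1:86582751-86582780, with the match on the opposite strand at position 17 relative to the RefSeq start of Pde6d, which lies 156 bases upstream of the start in GENCODE M21, and is written 5′ to 3′ on the minus strand of the chromosome, which is the strand of the gene.
Pde6d: actagtgtgcccGGCAACaagagcaggcat
Of the genes tested, 6.1% carried a promoter peak of RFX2 in chromatin immunoprecipitation at P21, and 0 of the 9 were among them. Of the 68 genes in the count table from the pathway lists described below, 8 had such a peak, some of them subunits of IFT-A. Rp2 was on the list of genes that need the spermatid factor CREM and are bound by it, which held 1.49% of the genes tested. A match of letters is a description of the window and not a binding site.

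The targeted gene was examined first. Rfx2 had 559.7, 551.5, 470.9, 540.7 and 623.8 CPM in wild type replicates 1 to 5 and 199.2, 61.51, 151.1 and 172.7 CPM in Rfx2-/- replicates 1 to 4 (CPM, counts scaled to the library size and its TMM factor). The genotypes did not overlap, and the log2 fold change was -1.91 (SE 0.28, edgeR adjusted p 0.000781). Rfx2-/- replicate 1 had a total of 28800855 counts and the other 8 libraries 13574764 to 15193330, and 3 counts, the limit that a count of 0 allows, corresponded to 0.0996 to 0.234 CPM. A pair of libraries stood apart. Relative to the mean of the wild type libraries, the median log2 deviation in Rfx2-/- replicate 2 was 0.56 among genes whose exons add up to less than 2 kb and -0.86 among those above 8 kb, against -0.11 to 0.17 and -0.19 to 0.16 in the other knockout libraries. Wild type replicate 3 had the lowest summed level of 14 elongating spermatid markers among the wild type, 12776 CPM where the highest had 24946 CPM. Values without these libraries are given beside the results that they move.

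Germ cell and somatic markers were examined as lists, and every listed marker passed the filter on low counts. All 14 elongating spermatid markers (nuclear packaging and tail proteins such as Prm1 and Odf1) had fold changes below 0, with a median log2 fold change of -0.66. At an adjusted p of 0.05 or less there were 5, and 0 were called. Their sum was 12776 to 24946 CPM in wild type and 11114 to 14782 CPM in Rfx2-/- testes. The list includes Tnp1 and Tnp2, whose mRNAs the paper describes as not reduced in the knockout. It also describes them as already there, untranslated, late in the round spermatid stage. The name of the list thus does not mean that its mRNAs occur only in elongating cells. All 14 were again below 0 without Rfx2-/- replicate 2, with a median of -0.76, 9 at an adjusted p of 0.05 or less and 5 called lower, and without wild type replicate 3 the median was -0.75. All 9 meiotic prophase markers were above 0 (median 0.64, 1 at an adjusted p of 0.05 or less), with a summed level of 1032 to 1370.0 CPM in wild type and 1493 to 3143 CPM in Rfx2-/- testes, highest in replicate 2. Without that library all 9 were above 0 with a median of 0.27, and the knockout sum was 1493 to 1745 CPM. The medians of the other lists were 0.10 for 9 round spermatid, -0.18 for 8 late spermatocyte, 0.07 for 8 spermatogonial, 0.12 for 10 Sertoli cell, 0.19 for 7 Leydig cell, -0.01 for 5 peritubular cell and 0.53 for 7 macrophage markers, with 1 late spermatocyte marker lower and 1 Sertoli cell marker higher at an adjusted p of 0.05 or less. Without Rfx2-/- replicate 2 the median was 0.13 for the macrophage markers and -0.34 for the late spermatocyte markers, and the sign turned for the Leydig cell (-0.13), peritubular cell (0.11) and spermatogonial (-0.02) markers. Their part in the values that follow was not tested.

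In wild type testes the 9 genes spanned a wide range of level per length. Tulp2, a tubby-like gene known for its expression in testis, was highest with 262 ± 45.3 CPM per kb of exon (SD, n = 5), followed by Arl3 with 136 ± 9.55 and Arl2bp with 132 ± 14.7 CPM per kb. Pde6d had 63.1 ± 5.49, Inpp5e 28.6 ± 2.63 and Unc119 25.8 ± 2.17 CPM per kb. Unc119b with 8.11 ± 0.423, Rp2 with 7.17 ± 1.49 and Tulp3 with 2.54 ± 0.430 CPM per kb were lowest. The ranges of the 5 libraries overlapped for the neighbours Arl3 and Arl2bp, Inpp5e and Unc119, and Unc119b and Rp2, and for no other neighbours in this order. These levels use the whole exon length. With the bases that overlap exons of other genes left out of it, Inpp5e had 31.9 to 39.0 CPM per kb and no longer overlapped Unc119 with 23.7 to 28.6 CPM per kb, and the order was the same. In Rfx2-/- testes Unc119 was the fifth and Inpp5e the sixth of the 9 by mean level per length, the reverse of their wild type order, and the order of the other genes was the same.

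**Figure D1:**
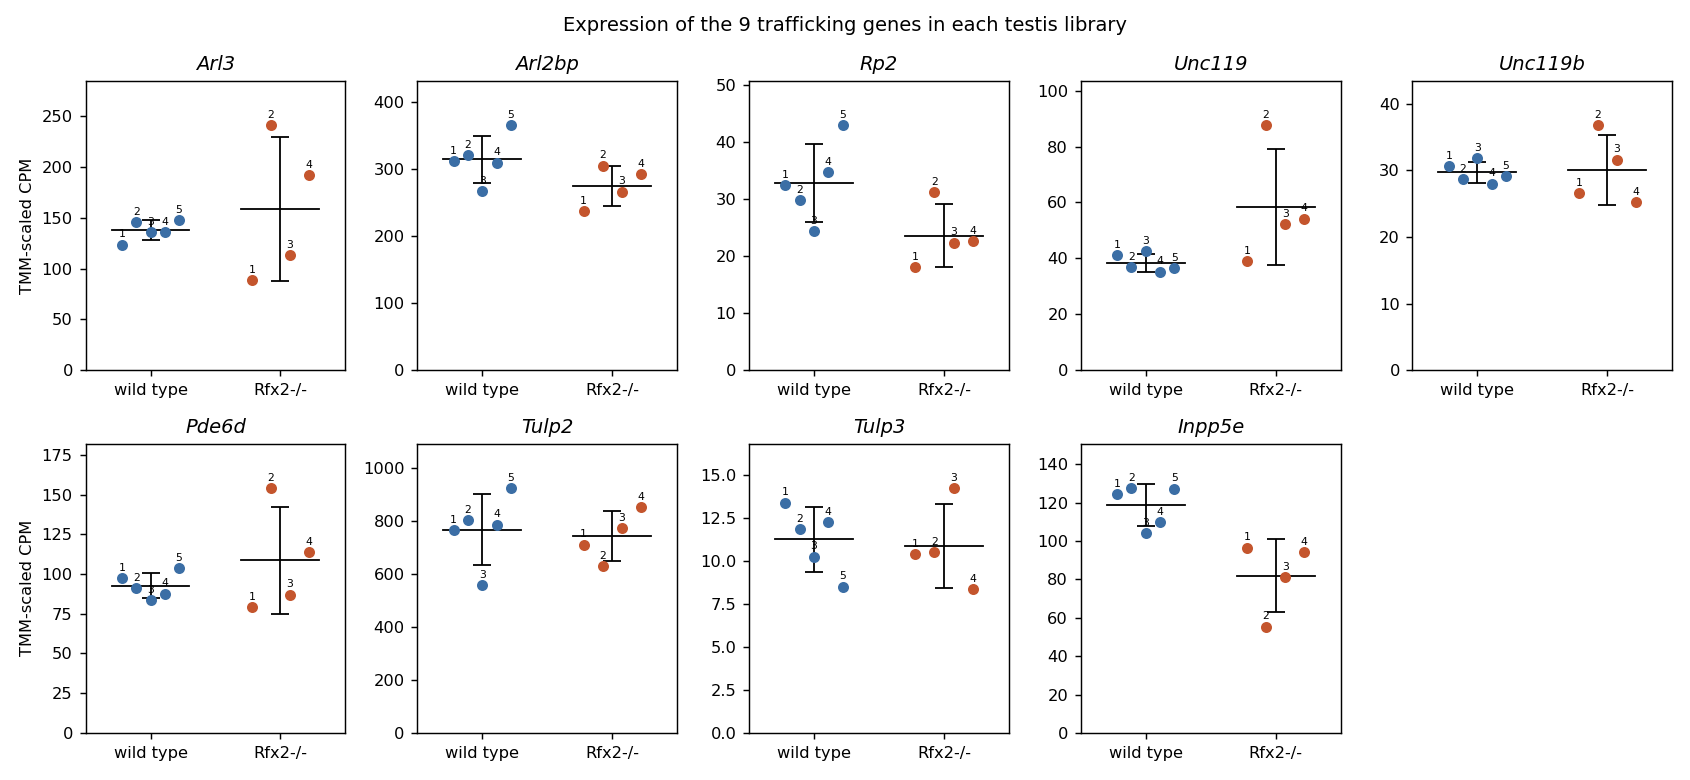
Level of each of the 9 genes in every library, in TMM-scaled CPM on a linear axis that starts at 0, with points for wild type (blue, n = 5) and Rfx2-/- (orange, n = 4) numbered by replicate, horizontal lines for the mean and bars for the SD. The points of the genotypes are apart for Inpp5e and overlap for the other 8 genes, and Rfx2-/- replicate 2 is the highest knockout library in 6 of the 9 panels.

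None of the 9 genes was called between genotypes. A gene was called lower or higher at an adjusted p of 0.01 or less together with a change of more than 2-fold, which held for 3.68% (lower) and 0.826% (higher) of 15613 genes tested in edgeR. In edgeR, DESeq2 and limma voom alike, 0 of the 9 genes were called in either direction, whereas 2 were lower (Rp2 and Inpp5e) and 1 was higher (Unc119) at an unadjusted p under 0.05. That is 3 of 9, where 27.6% of all genes tested had such a p in edgeR (13.7% lower and 13.9% higher), so that the share was close to the background. There were 4 genes with fold changes above 0 and 5 below 0, and their median log2 fold change was -0.05 against 0.03 over all genes tested. This split depended on the outlying libraries. Without Rfx2-/- replicate 2 and wild type replicate 3, a setting chosen after seeing the data, all of the 9 but Unc119 (0.37) were below 0. Of all genes tested, 44.7% were below 0 in that setting. Rfx2-/- replicate 2 was the highest knockout library for 6 of the 9, and wild type replicate 3 the lowest wild type library for 5. Inpp5e alone had knockout libraries that were all below the wild type libraries, 1 of 9 where 9.7% of all genes tested were separated in this direction. At an adjusted p of 0.05 or less, which 10.8% of all genes tested reached in edgeR, there were 0 of the 9 in edgeR and limma voom and 1, Inpp5e, in DESeq2 (adjusted p 0.0262).

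**Figure D2:**
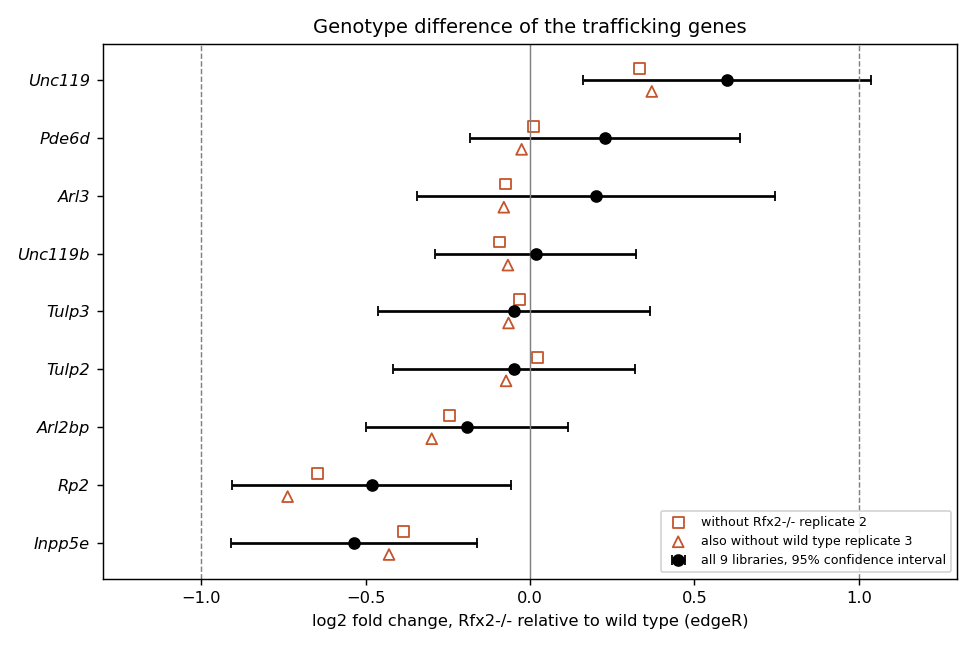
Fold change of the 9 genes on a log2 axis, Rfx2-/- relative to wild type from edgeR, with black points and bars for the estimate and 95% confidence interval over all 9 libraries, open squares for the fit without Rfx2-/- replicate 2 and open triangles for the fit also without wild type replicate 3. The intervals of Inpp5e, Rp2 and Unc119 lie on a single side of 0, the other 6 include 0, and the interval of Unc119 alone reaches past a 2-fold change (dashed lines).

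The ARL3 switch was examined through the GTPase and its GTPase-activating protein RP2. Arl3 (chromosome 19, 46531096 to 46573198, minus strand, GRCm38 here and below) had 123.6, 145.7, 135.6, 136.0 and 148.0 CPM in the wild type libraries and 88.61, 241.1, 112.9 and 191.6 CPM in the knockout libraries. The knockout libraries lay on both sides of the wild type, with replicates 1 and 3 below all of them and replicates 2 and 4 above, and the coefficient of variation was 44.4% in Rfx2-/- against 7.04% in wild type testes. The log2 fold change was 0.20 (SE 0.25, 95% confidence interval -0.34 to 0.75, edgeR adjusted p 0.628), and it was -0.074 without Rfx2-/- replicate 2. Without that library the knockout coefficient of variation was still 41.1%.

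Rp2 (X chromosome, 20364481 to 20405653, plus strand), the GTPase-activating protein gene and a gene of X-linked retinitis pigmentosa, had 32.42, 29.74, 24.40, 34.66 and 42.89 CPM in the wild type libraries and 18.10, 31.16, 22.35 and 22.57 CPM in the knockout libraries. Rfx2-/- replicates 1, 3 and 4 were below every wild type library, and replicate 2 was within their range. The mean in Rfx2-/- testes was 71.7% of the wild type mean, with a log2 fold change of -0.48 (SE 0.19, interval -0.91 to -0.06), which did not pass the adjustment (edgeR p 0.0295, adjusted p 0.135). Without Rfx2-/- replicate 2 Rp2 had a log2 difference of -0.65 (SE 0.17, edgeR adjusted p 0.0175). Without this library and wild type replicate 3 together it was -0.74 (SE 0.14, edgeR adjusted p 0.0018). These were the highest knockout and the lowest wild type library for Rp2, so leaving them out had to widen the difference. Leaving out both was chosen after seeing the data. The log2 difference of Rp2 was -0.33 (edgeR adjusted p 0.316) when the trend of each library on gene length, fitted against the mean of all libraries, was removed. Its adjusted p lay between 0.0018 and 1 under the alternatives. The 600 X-linked genes tested had a median log2 fold change of 0.23 and 28.2% of them were below 0, against 0.02 and 47.6% for the other genes.

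Among the carriers, Unc119 (chromosome 11, 78343482 to 78349164, plus strand), which binds myristoylated proteins, had 41.29, 36.78, 42.55, 35.25 and 36.49 CPM in the wild type libraries and 39.15, 87.66, 52.14 and 54.23 CPM in the knockout libraries. Rfx2-/- replicates 2, 3 and 4 were above every wild type library, and replicate 1 was within their range. The knockout mean was 152% of the wild type mean, with a log2 fold change of 0.60 (SE 0.20, interval 0.16 to 1.04), which did not pass the adjustment (edgeR p 0.0116, adjusted p 0.0803). Without Rfx2-/- replicate 2 it was 0.33 (SE 0.12, adjusted p 0.0949). It was 0.73 (adjusted p 0.0434) when libraries were scaled by total counts, which moved the median of all genes from 0.03 to 0.16, and 0.52 (adjusted p 0.0239) with the length trend against all libraries removed.

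Its paralog Unc119b (chromosome 5, 115122550 to 115134975, minus strand) binds the same class of cargo and had 30.66, 28.73, 31.85, 28.02 and 29.16 CPM in the wild type libraries and 26.60, 36.78, 31.62 and 25.25 CPM in the knockout libraries. The knockout libraries lay around the wild type ones, with a log2 fold change of 0.02 (SE 0.14, interval -0.29 to 0.32, edgeR adjusted p 0.948). Of the 50-base stretches of its exons, 11.5% occur also in the annotated gene AC140207.2. Reads from them could be lost, because reads with several positions were discarded. The carriers were also compared within each library, since a ratio within a library needs no scaling between libraries. The log2 ratio of Unc119 to Unc119b per length was 1.67 ± 0.05 in wild type (1.62 to 1.73, n = 5) and 2.21 ± 0.32 in Rfx2-/- libraries (1.85 to 2.55, n = 4, SD), without overlap. The difference of 0.54, a 1.45-fold change of the ratio, had an exact two-sided permutation p of 0.00794, the smallest that 5 against 4 libraries allow (0.0119 adjusted over the 3 ratios tested). The ratios were chosen with earlier results of these data known, which neither this p nor its adjustment covers. A ratio shows unequal change of both genes and does not assign it to either. The exons of Unc119 add up to 1489 bp and those of Unc119b to 3659 bp, and the difference was 0.42 both without Rfx2-/- replicate 2 (exact permutation p 0.0179, the smallest that 5 against 3 libraries allow) and with the length trend removed (exact permutation p 0.00794).

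**Figure D3:**
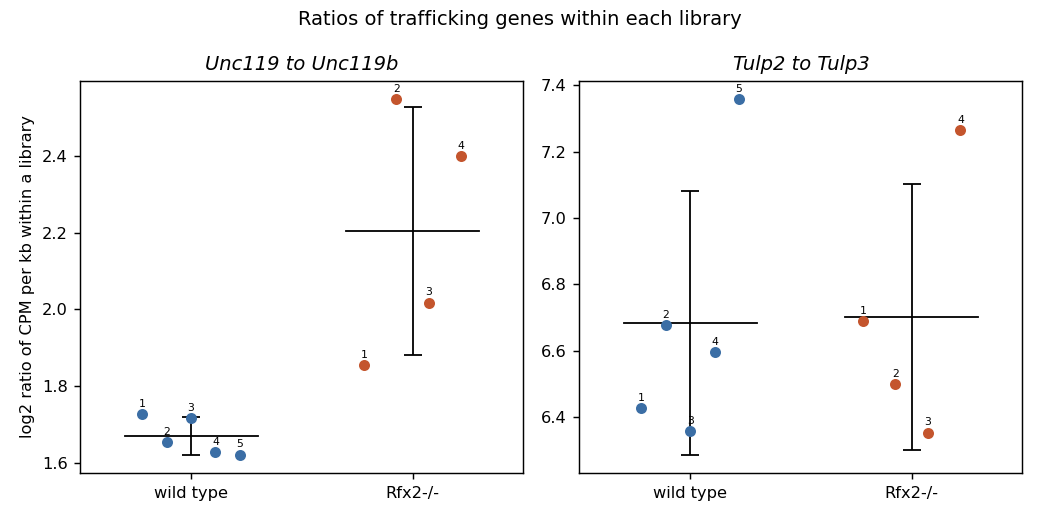
Ratio of gene pairs within each library on a log2 axis that does not start at 0, from CPM per kb of exon, with points for wild type (blue, n = 5) and Rfx2-/- (orange, n = 4) libraries numbered by replicate, lines for the mean and bars for the SD. The genotypes are apart for Unc119 to Unc119b and overlap for Tulp2 to Tulp3, whose means are 6.68 and 6.70.

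Pde6d (chromosome 1, 86542994 to 86582629, minus strand), the carrier of prenylated proteins, had 83.58 to 103.9 CPM in the wild type libraries and 79.17, 154.3, 87.10 and 114.0 CPM in the knockout libraries. Replicates 2 and 4 were above the wild type range and replicate 1 was below it, with a log2 fold change of 0.23 (SE 0.19, interval -0.18 to 0.64, edgeR adjusted p 0.454). The log2 fold change of Pde6d was 0.010 without Rfx2-/- replicate 2 (SE 0.13, edgeR adjusted p 0.972). Arl2bp (chromosome 8, 94666600 to 94674425, plus strand), an effector that binds ARL2 and ARL3, had 266.8 to 365.6 CPM in the wild type libraries and 237.6, 305.2, 266.5 and 292.5 CPM in the knockout libraries. Its knockout replicates 1 and 3 were below the wild type range, and the log2 fold change was -0.19 (SE 0.14, interval -0.50 to 0.11, edgeR adjusted p 0.394). Without Rfx2-/- replicate 2 and wild type replicate 3, the log2 fold change of Arl2bp was -0.30 (SE 0.11, edgeR adjusted p 0.0787). These were its highest knockout and lowest wild type library, so leaving them out had to widen the difference.

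The tubby-like genes did not pass the test, and the sign of both depended on the scaling. Tulp2 (chromosome 7, 45481877 to 45523632, plus strand) had 765.2, 805.0, 557.9, 786.9 and 926.2 CPM in the wild type libraries and 711.7, 630.9, 773.3 and 854.8 CPM in the knockout libraries. The knockout libraries were all within the wild type range, and the knockout mean was 96.7% of the wild type mean. The log2 fold change was -0.05 (SE 0.17, interval -0.42 to 0.32, edgeR adjusted p 0.874), and 0.092 with total counts. Tulp3 (chromosome 6, 128321161 to 128355851, minus strand), the ciliary adaptor of membrane receptors, had 8.50 to 13.4 CPM in the wild type libraries and 10.39, 10.50, 14.24 and 8.37 CPM in the knockout libraries. Its log2 fold change was also -0.05 (SE 0.19, interval -0.46 to 0.37, edgeR adjusted p 0.89), and 0.087 with total counts. Within libraries Tulp2 was about 103-fold more abundant than Tulp3 per length in wild type testes and 104-fold in Rfx2-/- testes, a log2 difference of 0.02 (exact two-sided permutation p 0.921, the same after adjustment over the 3 ratios). Of the exon sequence of Tulp2, 234 bp overlap exons of other genes on the opposite strand, and reads there were left out if the counting did not use strand, which is not given in the sources used here.

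Inpp5e (chromosome 2, 26396249 to 26409203, minus strand), a farnesylated phosphatase that keeps the phosphoinositides of the ciliary membrane in their monophosphate form and travels on PDE6D, had the smallest p of the 9 genes. It had 124.4, 127.7, 104.3, 109.7 and 127.3 CPM in the wild type libraries and 96.54, 55.36, 81.31 and 94.34 CPM in the knockout libraries. Every knockout library was below every wild type library, with replicate 2 far below the other knockout libraries. The mean fell from 119 ± 10.9 CPM (SD, n = 5) to 81.9 ± 18.9 CPM (SD, n = 4), or 69.0%, with a log2 fold change of -0.53 (SE 0.17, interval -0.91 to -0.16), and the test did not pass the adjustment (edgeR p 0.00893, adjusted p 0.069). Without Rfx2-/- replicate 2 the value was smaller and its error lower, -0.39 (SE 0.11, adjusted p 0.0345), and without wild type replicate 3 as well it was -0.43 (adjusted p 0.0114). With the length trend removed it was -0.45 (adjusted p 0.0446). Over its alternatives the adjusted p of Inpp5e lay between 0.0114 and 1, the upper end in the test of a change beyond 2-fold.

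The exons of Inpp5e overlap those of Pmpca, a mitochondrial peptidase subunit on the opposite strand, over 874 bp, and 19.2% of its 50-base stretches are shared with it. The authors left out reads over exons of different genes, and whether this removed the reads from these bases depends on the use of strand, which is not given in the sources used here. Pmpca had 112 ± 6.51 CPM in the wild type libraries and 98.4 ± 8.73 CPM in the knockout libraries, and the log2 difference was -0.19 (SE 0.12, edgeR adjusted p 0.336). The genes whose log2 CPM followed that of Inpp5e most closely over the 9 libraries were Zfp523 (Pearson r 0.997), Zfp574 (0.992) and Zdhhc4 (0.989), the top 3 of 12828 genes with a mean of at least 50 counts. These are descriptions over libraries that differ in genotype and depth. They include Rfx2-/- replicate 2, in which Inpp5e was far below the other knockout libraries.

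The knockout libraries varied more than the wild type libraries for most of the 9 genes. The share over all genes tested was not counted, so this cannot be read as particular to them. The coefficient of variation was larger in Rfx2-/- testes for 7 of 9 genes, and for 5 of 9 without replicate 2. That library was the highest knockout library for 6 genes and the lowest for 2, Tulp2 and Inpp5e. Its log2 level relative to the mean of the other knockout libraries was largest for the genes with the shortest exon sequence, 0.88 for Arl3 (1016 bp), 0.85 for Unc119 (1489 bp) and 0.72 for Pde6d (1469 bp). It was 0.57 for Rp2 (4580 bp), 0.20 for Arl2bp and 0.40 for Unc119b, -0.07 for Tulp3 (4423 bp), -0.31 for Tulp2 (2936 bp) and -0.71 for Inpp5e (4147 bp), so that genes of similar length were found on both sides. Wild type replicate 3, the library with the lowest sum of elongating spermatid markers among the wild type, was the lowest wild type library for 5 of the 9 genes and the highest for Unc119 and Unc119b.

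Other genes of the pathway were examined from lists written by their known function. Of 69 listed genes, 61 passed the filter, and 4 were called lower (Arl13a, Inpp5d, Lck and Tub) and 0 higher in edgeR, where 3.68% and 0.826% of all genes tested were called. At an unadjusted p under 0.05 there were 11 lower and 5 higher, where 13.7% and 13.9% of all genes tested had such a p. DESeq2 and limma voom also called these 4 lower, and both called 0 higher. The median log2 fold change of the 61 genes was -0.09, with 35 below and 26 above 0. By list, 1 of 24 ARL GTPases with their regulators and effectors, 1 of 9 cargo genes, 0 of 8 lipid-modifying enzymes, 1 of 10 tubby-like genes and partners and 1 of 10 phosphoinositide phosphatases were called lower. The medians of these lists were 0.12, 0.01, 0.07, -0.38 and -0.21. In the tubby list, which holds the IFT-A subunits, 9 of 10 genes were below 0, where 46.9% of all genes tested were, and its summed level was 2118 to 2355 CPM in wild type and 819 to 1981 CPM in Rfx2-/- testes, with the lowest value in replicate 2. The median log2 deviation of this list from the wild type mean was -1.43 in that library and -0.11, -0.40 and -0.25 in Rfx2-/- replicates 1, 3 and 4. Without replicate 2, 9 of 10 genes were still below 0 where 45.1% of all genes tested were, the median log2 fold change was -0.20, 0 were called and the knockout sum was 1679.8 to 1981 CPM. The medians of the other lists without it were -0.02 for the ARL GTPases, -0.08 for the cargo genes, 0.07 for the lipid-modifying enzymes and -0.06 for the phosphatases.

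Arl13a, an X-linked gene of the ARL family, had 15.52, 15.18, 8.78, 15.71 and 14.66 CPM in the wild type libraries and 2.16, 2.54, 1.23 and 1.64 CPM in the knockout libraries. It fell to 13.5% of the wild type mean, -2.87 on the log2 scale (SE 0.26, edgeR adjusted p 1.1e-05). Inpp5d, a phosphatase of the Inpp5e family known mainly from blood cells, had 26.69, 24.86, 24.34, 21.02 and 28.77 CPM in the wild type libraries and 7.54, 3.74, 7.22 and 4.84 CPM in the knockout libraries. It fell to 23.2% of the wild type mean (log2 fold change -2.10, SE 0.22, edgeR adjusted p 3.76e-05). Arl13a and Inpp5d were called lower under every alternative. The macrophage markers, of a blood lineage, had a summed level of 51.4 to 75.2 CPM in wild type and 59.1 to 128 CPM in Rfx2-/- testes, or 59.1 to 78.6 CPM without replicate 2, and the part of blood cells in the level of Inpp5d was not tested.

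Tub, the founding member of the tubby family, had 41.75, 48.55, 41.49, 44.32 and 42.57 CPM in the wild type libraries and 25.24, 11.23, 18.47 and 26.36 CPM in the knockout libraries. The genotypes did not overlap, and Tub fell by 1.10 on the log2 scale (SE 0.22, edgeR adjusted p 0.00582), but it was not called when Rfx2-/- replicate 2, Rfx2-/- replicate 3 or any single wild type library was left out. Lck, a myristoylated kinase of T cells that binds UNC119, was at a low level, 2.27 ± 0.640 CPM in the wild type (SD, n = 5) and 0.852 ± 0.0973 CPM in the knockout (SD, n = 4), with 11 to 39 counts per library. Its log2 fold change was -1.41 (SE 0.27, edgeR adjusted p 0.00457), and it was not called without wild type replicate 1, 2 or 3 or without Rfx2-/- replicate 1, 3 or 4.

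Arl4c, an ARL GTPase of the plasma membrane, and Rpgr, an X-linked gene of retinitis pigmentosa whose prenylated product binds PDE6D, reached an adjusted p of 0.01 or less with a change under 2-fold. Arl4c fell from 15.9 ± 1.60 to 8.13 ± 1.81 CPM (log2 fold change -0.97, SE 0.17, edgeR adjusted p 0.00289). Rpgr fell from 53.6 ± 8.17 to 31.6 ± 2.80 CPM (log2 fold change -0.76, SE 0.15, edgeR adjusted p 0.00505). Both had knockout libraries that were all below the wild type ones, which held for 9.7% of all genes tested. Named after their values were seen, Arl11 (log2 fold change -0.80, adjusted p 0.0139) and Tbce (0.61, 0.0307) were also at an edgeR adjusted p of 0.05 or less, and Tbce, a tubulin folding cofactor, was the only higher one among the pathway genes at this limit.

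**Figure D4:**
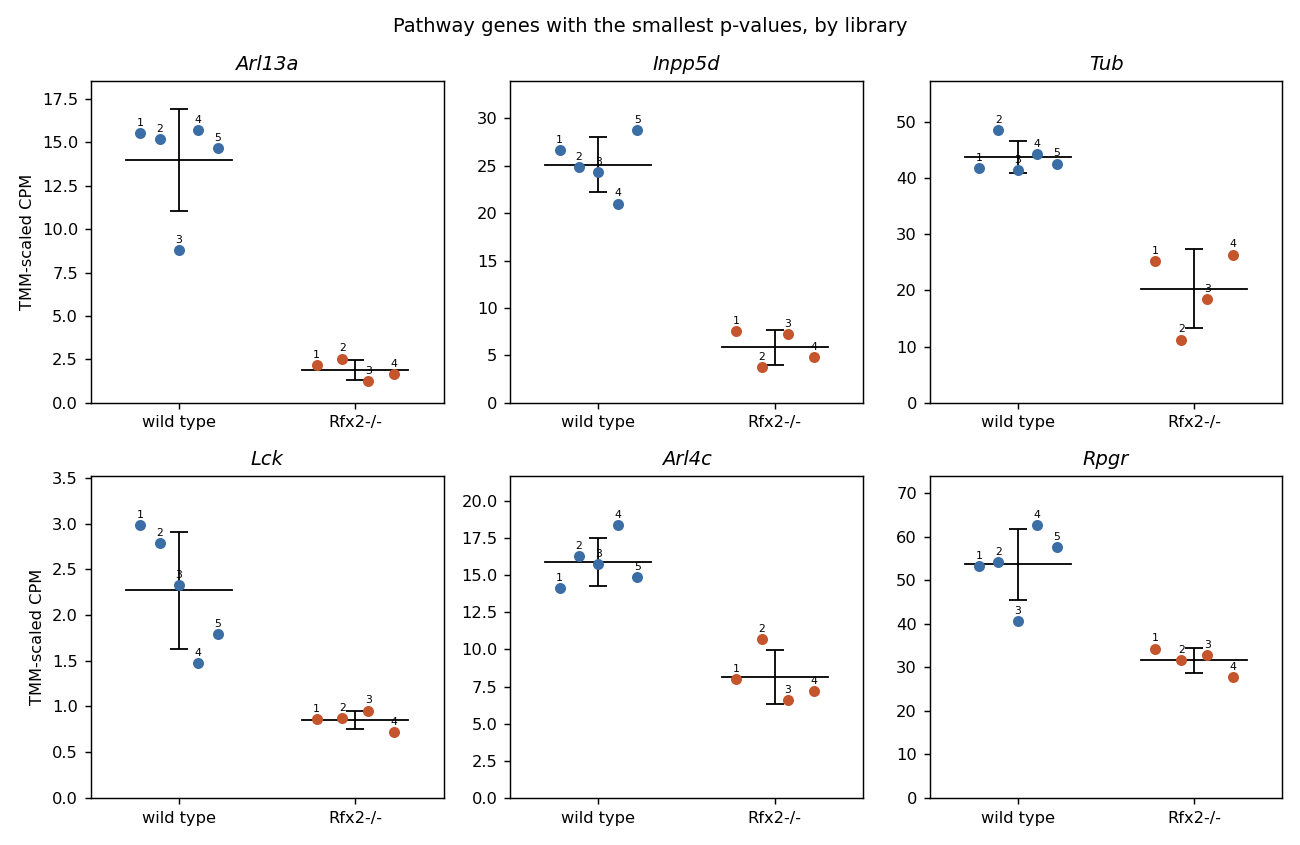
Level of the 6 pathway genes with the smallest p in every library, in TMM-scaled CPM on a linear axis that starts at 0, with points for wild type (blue, n = 5) and Rfx2-/- (orange, n = 4) numbered by replicate, lines for the mean and bars for the SD. All knockout points lie below all wild type points in each panel, from Arl13a at 13.5% of the wild type mean to Rpgr at 58.9%. The genes were chosen by their p in these same libraries, which favours such separation, and 9.7% of all genes tested were separated in this direction.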

How the data were processed

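The deposited table holds raw counts of reads per gene, in whole numbers. Per the study's methods and processing notes, the authors used CASAVA 1.8.2, mapped single reads with STAR 2.4 to GRCm38, discarded reads with several positions and counted with featureCounts 1.4.6 over the merged exons of protein-coding isoforms, leaving out reads over exons of different genes. Use of strand is not given in the sources used here, and the methods name another read length and aligner elsewhere. Genes with near-identical copies lose reads under this procedure.

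Genotypes were taken from the labels. Gene names and positions came from GENCODE M21, which held 96.6% of the IDs, and promoters from RefSeq. Chi-square comparison of counts gave at least 4.32 per gene within a genotype, so each library was 1 replicate. The genotype effect was tested with the edgeR 4.0.16 quasi-likelihood F test in R 4.3.3 (TMM, filterByExpr, robust), with Benjamini-Hochberg adjustment over 15613 genes, and a call needed an adjusted p at or under 0.01 and a change beyond 2-fold, with the fold and p limits of the study, whose 0.01 is stated as a p-value and was applied here to the adjusted p. Limma 3.58.1 (voom), DESeq2 1.42.0, other scalings and filters, a length correction and leaving out libraries were alternatives. The procedure was tested on simulated data. The genes, pathway lists and ratios were chosen with earlier results of these data known. The results of 1 of the 10 genes, of a ratio with it and of 1 pathway gene are not reported here, and the other 9 genes and Rfx2 are named. Of the pathway lists, called genes are named, then those with the smallest p up to 6. The 3 genes most correlated with the gene of the smallest p are also named. Limits based on 3 counts cover counting error only.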

Additional observations from a re-analysis of the deposited data

How the results depend on the processing

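None of the 9 genes was called under any of 19 alternatives, which included 2 chosen after seeing the data. These were leaving out Rfx2-/- replicate 2 and wild type replicate 3 together, and removing each library's trend on gene length against all libraries. With that trend fitted within each genotype, the edgeR adjusted p was 0.0159 for Unc119 and 0.0172 for Inpp5e. That fit uses the genotype labels and removes spread within a genotype, and the test does not account for the fitted trends. The SE fell from 0.20 to 0.14 for Unc119 and from 0.17 to 0.14 for Inpp5e, so these p may be too small. The list values without single libraries and the levels without shared exon bases were also chosen after seeing the data. The genes called lower over the whole table numbered 575, and 272 in the test against 2-fold, with a leave-one-out range of 447 to 632. Those called higher numbered 129, with 211 in DESeq2, 29 in the test against 2-fold and 92 to 175 when libraries were left out. Pathway genes called lower were 4, with 2 under total counts, 2 in the test against 2-fold and 2 to 4 when libraries were left out; without wild type replicate 2, wild type replicate 3 or Rfx2-/- replicate 3, only Arl13a and Inpp5d were called. The DESeq2 and 2-fold tests differ from edgeR in model and in null hypothesis; for the others the cause was not tested. Signs turned for 5 of the 9 genes, none of which passed the test in any setting, and for 1 ratio. Without Rfx2-/- replicate 2 and wild type replicate 3 the log2 fold changes were -0.080 for Arl3, -0.067 for Unc119b and -0.026 for Pde6d. With total counts they were 0.092 for Tulp2 and 0.087 for Tulp3, and with the length trend against all libraries removed 0.0065 for Tulp2, 0.059 for Tulp3 and -0.040 for the ratio of Tulp2 to Tulp3. When libraries were left out, the ranges were -0.074 to 0.43 for Arl3, 0.010 to 0.39 for Pde6d, -0.094 to 0.12 for Unc119b, -0.10 to 0.027 for Tulp2, -0.17 to 0.087 for Tulp3 and -0.17 to 0.19 for the ratio of Tulp2 to Tulp3. The difference in the ratio of Unc119 to Unc119b (0.42 to 0.65) kept its sign and an exact p under 0.05 in all 12 alternatives. Most of these could not have turned out otherwise. Since the genotypes did not overlap, leaving out any library gives the smallest p that the remaining libraries allow. The length trend fitted within each genotype cannot move the mean difference, which stayed at 0.54. No paired analysis was possible because the labels carry animal numbers that the genotypes do not share, and replicate numbers only give the order of deposition. The paper states that littermates of matched age were used where possible. The labels do not give litters, so a pairing by litter could not be taken into account. At 13574764 counts or more per library the 9 genes lay well above the limit of 3 counts, while Lck had 11 to 39 counts per library and was called when Rfx2-/- replicate 1 was thinned.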
